A study of Mus musculus with 6 samples.

Results

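Mitochondrial ribosomal protein genes were identified in the deposited gene table by their symbols, as those that begin with Mrpl or Mrps followed by a digit, and 75 of the 16763 genes in the table met that rule. RNA had been sequenced from tumors of male BALB/c mice, induced with 4T1 cells, a line derived from a BALB/c mammary carcinoma. The 3 DMDD liposome libraries came from 4T1 tumors of mice given DMDD, named in the labels only by that abbreviation, in liposomes. Liposomes are lipid vesicles that carry a compound. The 3 model libraries came from 4T1 tumors of mice without that treatment. No group is named for empty liposomes, so DMDD and its carrier cannot be told apart. The tumors of both groups derive from 1 cell line. Ages, dose and duration of treatment were not stated, and no label ties a library to an animal. The p-values therefore reflect the spread of these libraries alone, and that spread may be technical.

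Mitochondria keep a ribosome of their own, which makes the few membrane proteins that mitochondrial DNA encodes, all of them parts of the respiratory chain and ATP synthase. Its ribosomal RNAs come from mitochondrial DNA, whereas its proteins are encoded in the nucleus, made in the cytosol and imported. Many of these proteins descend from the bacterial ribosome and others exist only in mitochondria. Mrpl symbols mostly name proteins of the large subunit, which forms peptide bonds, and Mrps symbols those of the small subunit, which reads the mRNA. Some names mislead. Mrps18a and Mrps30 encode proteins of the large subunit, and the Mrps36 product is now known as a component of the 2-oxoglutarate dehydrogenase complex of the citric acid cycle and not of the ribosome. By these assignments the 75 genes comprised 50 of the large subunit, 24 of the small subunit and Mrps36, and 45 of them had a bacterial counterpart while 29 were specific to mitochondria. Mrps10, Mrps23 and Mrpl53 were not analysed here.

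Promoters are shown because the factors NRF1, GABPA of the ETS family and YY1 are known to act at nuclear genes for mitochondrial proteins. RefSeq promoter windows of the mouse build GRCm38.p6, from 250 bases before to 50 bases after each start, were held for 66 of the 75 genes, in 72 windows. The letters CCGGAAG, the core that ETS proteins bind, were found on either strand in 24 of the 72 windows (33.3%), against 16.6% of the 12885 windows of genes tested and 8.86% of all 32851 windows. The YY1 letters AAGATGGCG were in 8 windows (11.1%, against 2.83% and 1.40%), and the NRF1 letters, GCGCA followed directly by its reverse complement, in 3 windows (4.17%, against 1.94% and 0.971%). The last 3 letters of CCGGAAG can be the first 3 of the YY1 letters, so that these matches can overlap. At least 1 of these 3 motifs was present in 33 windows (45.8%), against 20.3% of the windows of genes tested and 10.8% of all. The Sp1 letters GGGCGG were in 54.2% of members' windows and 61.3% of those of genes tested, and the TATA box letters TATAAA in 6.94% and 7.34%. These matches describe sequence letters and not binding. The 100 bases before the start are printed here for the member with the highest level per length (Mrpl52), for another carrier of the ETS letters (Mrpl34), for a carrier of the NRF1 letters whose groups had nearly equal means (Mrpl9), and for the member with a promoter window and the smallest p (Mrps17). Capitals mark a match to the ETS or NRF1 letters on either strand, all 4 genes lie on the plus strand of GRCm38.p6, and the Mrps17 stretch holds no match.
Mrpl52, chr14:54426809-54426908: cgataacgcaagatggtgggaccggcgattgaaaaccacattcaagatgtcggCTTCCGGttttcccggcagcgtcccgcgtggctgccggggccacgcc
Mrpl34, chr8:71464826-71464925: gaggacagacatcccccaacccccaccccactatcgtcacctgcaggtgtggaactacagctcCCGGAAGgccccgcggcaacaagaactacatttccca
Mrpl9, chr3:94443236-94443335: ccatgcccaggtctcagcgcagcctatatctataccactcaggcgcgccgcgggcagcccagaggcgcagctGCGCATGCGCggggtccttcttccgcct
Mrps17, chr5:129715397-129715496: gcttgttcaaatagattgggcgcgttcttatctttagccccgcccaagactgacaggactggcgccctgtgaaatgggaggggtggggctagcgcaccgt

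The libraries held 13037500 to 15616840 counts, and all 75 genes passed the filter on low counts, with 41 counts (Mrps36) to 2377 counts (Mrpl13) in a library. CPM, the count scaled to the library's total and adjusted between libraries by the TMM method, was used for comparisons of 1 gene between libraries. The 12 epithelial tumor cell markers were all detected, summing to 3910 to 4889 CPM in DMDD liposome and 4283 to 7178 CPM in model. Model replicate 2 also carried epidermal keratinocyte RNA, with 235.9 CPM summed over 10 markers, against 5.44 to 6.95 CPM in each other library, and Krt1, a keratin of the upper epidermis, was at 0 counts in all libraries but that one. The 13 proliferation markers summed to 1364 to 1479 CPM in DMDD liposome, whereas model replicate 1 held 952 CPM, model replicate 2 held 2009 CPM and model replicate 3 held 2180 CPM. At an unadjusted p under 0.05 by edgeR, where 3.31% of all genes tested were lower and 4.34% higher in DMDD liposome, 5 of 12 epithelial and 2 of 7 neutrophil markers tested were lower. By the same threshold 3 of 11 macrophage, 3 of 10 endothelial, 2 of 10 skeletal muscle, 1 of 10 fibroblast and 1 of 3 fat cell markers were higher, and 0 of 9 T cell markers passed it. By edgeR 0 of these markers passed the adjusted test, while the authors' deposited table called Cldn7, an epithelial marker, and S100a9, a neutrophil marker, both lower in DMDD liposome. The summed CPM of a list in DMDD liposome relative to model was 0.744 for epithelial, 0.618 for neutrophil and 1.51 for macrophage markers. This ratio was 2.99 for skeletal muscle, 3.25 for fat cell, 1.64 for T cell and 0.0742 for keratinocyte markers. Of these lists, only the neutrophil and macrophage sums were separate between groups. Skeletal muscle sums were 164.9, 35.4 and 312.3 CPM in DMDD liposome replicates 1 to 3, against 52.5 to 65.8 CPM in model. Fat cell sums were 50.8 ± 44.8 CPM in DMDD liposome and 15.6 ± 4.91 CPM in model. Whether these marker levels had a part in the values of the mitoribosomal genes was not tested.

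Levels between genes were compared per length, as FPKM, the authors' count per gene length and sequencing depth. Mean FPKM over the 6 libraries ran from 2.60 for Mrpl48 to 162.9 for Mrpl52. It exceeded 50 in 13 members, lay between 10 and 50 in 44 and was under 10 in 18. Mrpl52, a mitochondria-specific protein of the large subunit, stood at 165.3 ± 29.7 FPKM in DMDD liposome and 160.4 ± 14.2 FPKM in model (SD, n = 3 each, as for all means here). Mrpl33, the counterpart of bacterial L33, stood at 115.8 ± 21.2 FPKM in DMDD liposome and 129.97 ± 27.2 FPKM in model. Mrpl13, counterpart of L13, followed at 132.9 ± 7.46 FPKM and 101.6 ± 15.3 FPKM, and Mrps21, counterpart of S21, at 106.0 ± 14.7 FPKM and 107.3 ± 24.7 FPKM, in the same order of groups. In the model group each of these 4 members overlapped its neighbour in the order of means. In DMDD liposome, every library of Mrpl52 lay above every library of Mrpl33, and every library of Mrpl13 above every library of Mrps21. Mrpl13 overlapped both Mrpl33 and Mrpl52 there, with 140.1 FPKM in replicate 2 against 139.1 FPKM for Mrpl52 in replicate 3. The rank depends on the gene length behind it: Mrps21 was the 16th member by CPM and the 4th by FPKM, with a length of 492 bases. The lengths implied by the authors' counts and FPKM ran from 478 to 7605 bases, with a median of 1363 against 3299 for all genes tested.

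The 4 lowest members per length were Mrpl48, Mrps33, Mrps25 and Mrpl23. Mrpl48, of the large subunit, stood at 2.69 ± 0.170 FPKM in DMDD liposome and 2.51 ± 0.506 FPKM in model. Mrps33, of the small subunit, stood at 3.82 ± 0.541 FPKM in DMDD liposome and 3.96 ± 0.291 FPKM in model. Mrpl23, counterpart of L23 beside the exit of the peptide tunnel, stood at 4.90 ± 0.862 FPKM in DMDD liposome and 4.91 ± 0.496 FPKM in model. Mrpl48 and Mrpl23 each have 1 pseudogene named after them in the GENCODE annotation of GRCm38, and Mrps36, the lowest member by CPM, has 3. How reads were divided between such copies was not stated, and these levels are uncertain.

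**Figure D1:**
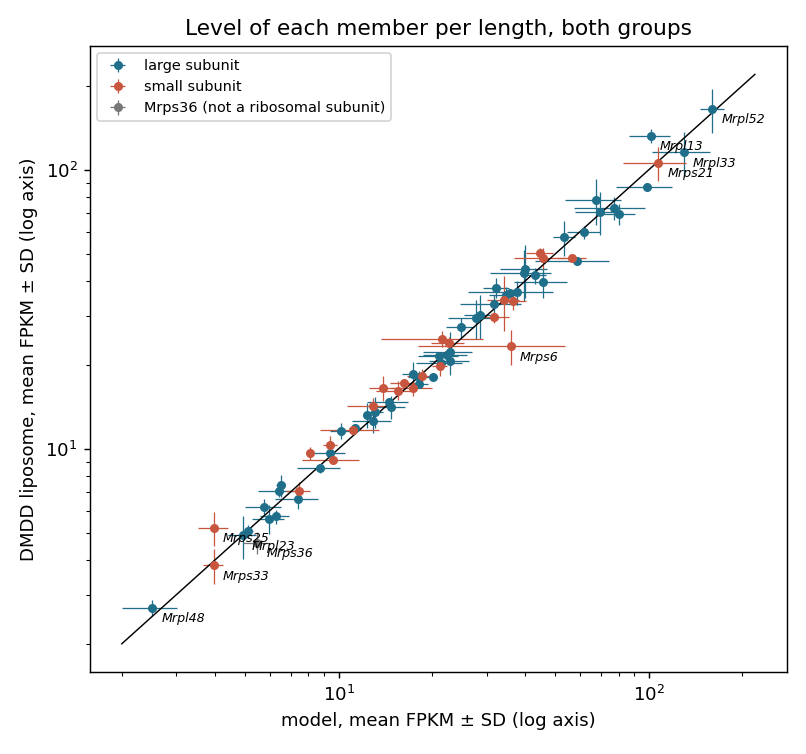
Mean FPKM of each of the 75 members in DMDD liposome (vertical) against model (horizontal) tumors, both on log axes, with SD over 3 libraries per group; the line marks equal levels. Group means span 2.51 FPKM (Mrpl48, model) to 165.3 FPKM (Mrpl52, DMDD liposome) and lie along the line, with Mrps6 the farthest below it.

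The comparison of DMDD liposome with model tumors asked whether treatment changed the expression of these genes. None of the 75 members passed edgeR's quasi-likelihood test after Benjamini-Hochberg adjustment over all genes tested (smallest adjusted p = 0.626, Mrpl13), where 0% of the 12891 genes tested passed. At an unadjusted p under 0.05 there were 3 members, all higher in DMDD liposome, against a background of 7.65% of genes in either direction, 4.34% higher and 3.31% lower. The median log2 fold change over the members was -0.01, with 36 positive and 39 negative, beside 0.01 over all genes tested. Of the 75 members, 64 had a log2 fold change within 0.2 of 0 (85.3%), as did 60.4% of all genes tested. The members summed to 2893, 3090 and 2750 CPM in DMDD liposome replicates 1 to 3, against 2658, 3305 and 2804 CPM in model replicates 1 to 3. The group means were 2911 ± 170.4 and 2922 ± 340 CPM, and all DMDD liposome sums lay within the range of the model sums.

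The size of change that these data leave possible differed between members. The 95% interval of the fold change, from the same fit, lay within 1.5-fold in either direction for 64 of 75 members, and within 2-fold for 74. Among all genes tested, 51.4% and 75.1% had intervals within those bounds. On the log2 scale, the reach of the interval to either side of the estimate had a median of 0.33 over the members and ran from 0.23 to 0.77. The exception at 2-fold was Mrps6, with an interval on the log2 scale from -1.41 to 0.13. In bulk tumor RNA, fewer cells of a type and less RNA per cell cannot be told apart.

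**Figure D2:**
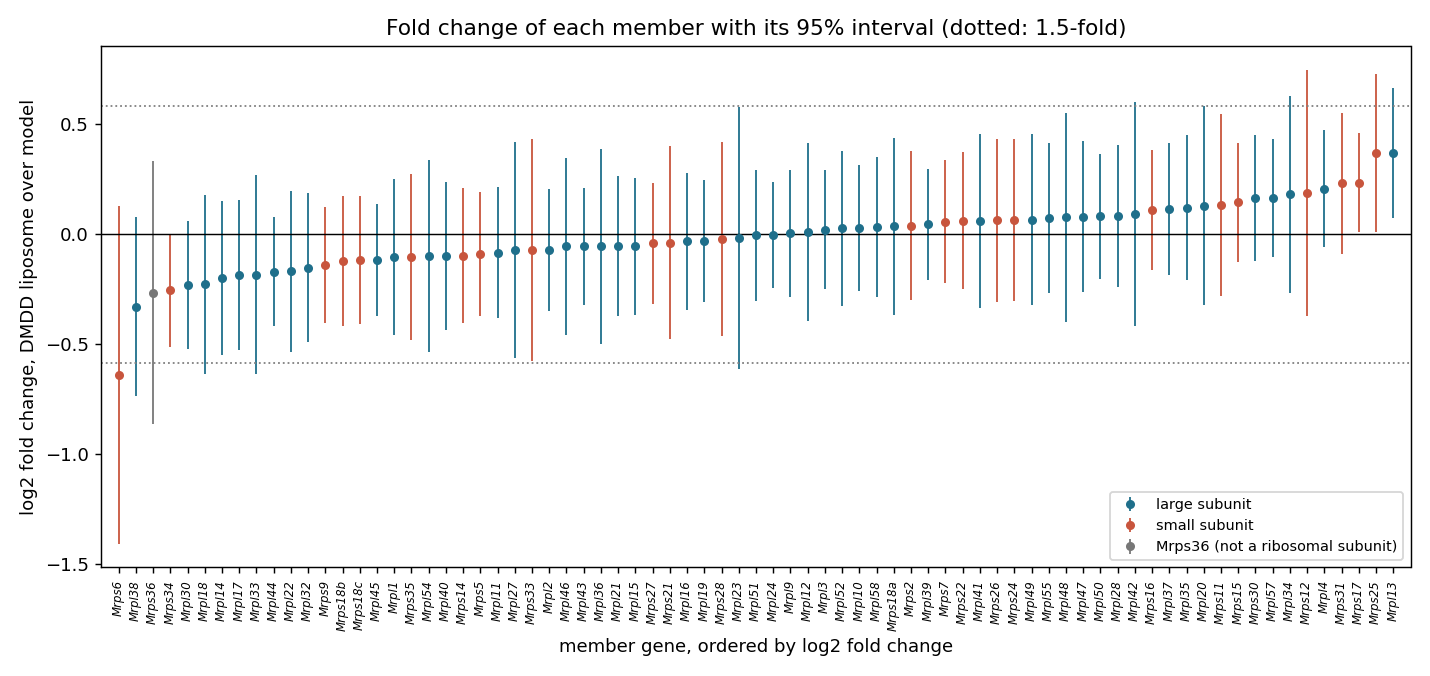
Log2 fold change of DMDD liposome over model for each member, ordered from lowest to highest, with its 95% interval; colors mark the subunit and dotted lines a 1.5-fold change. Intervals of 72 of the 75 members cross 0, and the medians of large and small subunit members lie at 0.00 and 0.01.

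The large subunit showed no shift as a group, with a median log2 fold change of 0.00 over 50 members, of which 24 were positive, 1 had an unadjusted p under 0.05 and 0 passed the adjusted test. The small subunit had a median of 0.01 over 24 members, of which 12 were positive, 2 had an unadjusted p under 0.05 and 0 passed. Over all genes tested, 7.65% had an unadjusted p under 0.05 by edgeR. Members with a bacterial counterpart had a median of -0.02 over 45, and mitochondria-specific members 0.03 over 29. The summed level of the large subunit was 2085 ± 143.0 CPM in DMDD liposome and 2093 ± 240 CPM in model, and that of the small subunit 823 ± 29.7 CPM and 825 ± 99.1 CPM, in the same order.

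The groups' CPM values, 3 against 3, were fully separate for 7 members (9.33%), beside 12.9% of all genes tested. Those higher in DMDD liposome were Mrpl13, Mrps17, Mrpl4 and Mrps30 (background 7.21%), and those lower were Mrps34, Mrpl38 and Mrpl44 (background 5.66%). Their values are given as measurements, since none passed the adjusted test.

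Mrpl13, which binds ribosomal RNA of the large subunit and has the highest CPM of the family, measured 149.2, 173.7 and 162.0 CPM in DMDD liposome replicates 1 to 3, against 124.7, 142.4 and 108.0 CPM in model replicates 1 to 3. The lowest DMDD liposome value lay just above the highest model value. The log2 fold change was 0.37 ± 0.13 (SE; 1.29-fold, unadjusted p = 0.0204), and it ranged from 0.26 to 0.47 when each library was left out. Mtbp, a gene on the opposite strand that shares exon bases with Mrpl13 in the GENCODE annotation, had a log2 fold change of 0.02 ± 0.17.

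Mrps17, counterpart of the ribosomal RNA binding protein S17, measured 59.3, 59.3 and 54.2 CPM in DMDD liposome, against 49.0, 48.2 and 49.7 CPM in model. Its model libraries lay within 1.54 CPM of each other, so that a log2 fold change of 0.23 ± 0.10 (1.18-fold, unadjusted p = 0.0439) separated the groups, and it ranged from 0.21 to 0.28 with each library left out. Mrpl4, counterpart of L4, which reaches into the peptide exit tunnel, measured 51.9, 48.1 and 45.0 CPM in DMDD liposome, against 44.2, 43.5 and 38.0 CPM in model (log2 fold change 0.21 ± 0.11). The groups lay next to each other, with a gap under 1 CPM. Mrps30 of the large subunit had 24.4 ± 1.96 CPM in DMDD liposome and 21.8 ± 0.447 CPM in model. Its lowest DMDD liposome value, 22.28 CPM, lay barely above its highest model value, 22.23 CPM. The log2 fold change was 0.17 ± 0.12 (unadjusted p = 0.216 by edgeR).

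Mrps25, a mitochondria-specific protein of the small subunit, measured 34.99, 32.41 and 26.85 CPM in DMDD liposome, against 21.01, 24.96 and 26.92 CPM in model. Its groups touched, with replicate 3 of either group at the same level, and the log2 fold change was 0.37 ± 0.15 (unadjusted p = 0.0448). In the GENCODE annotation 69.8% of the exon bases of Mrps25 are shared with Nr2c2, a nuclear receptor gene on the opposite strand. The strand setting of the authors' counting was not stated, and without strand the reads of the pair cannot be told apart. The overlap in the gene models the authors counted on was not measured, here or for the other genes with shared exons. Nr2c2 itself had 33.1 ± 5.48 CPM in DMDD liposome and 37.4 ± 5.13 CPM in model, a log2 fold change of -0.17 ± 0.16.

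Mrps31 and Mrps15 of the small subunit and Mrpl57 of the large subunit completed the 8 positive members with the smallest p, with log2 fold changes of 0.23, 0.14 and 0.17. Each of their groups overlapped, and their unadjusted p ran from 0.133 to 0.249.

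**Figure D3:**
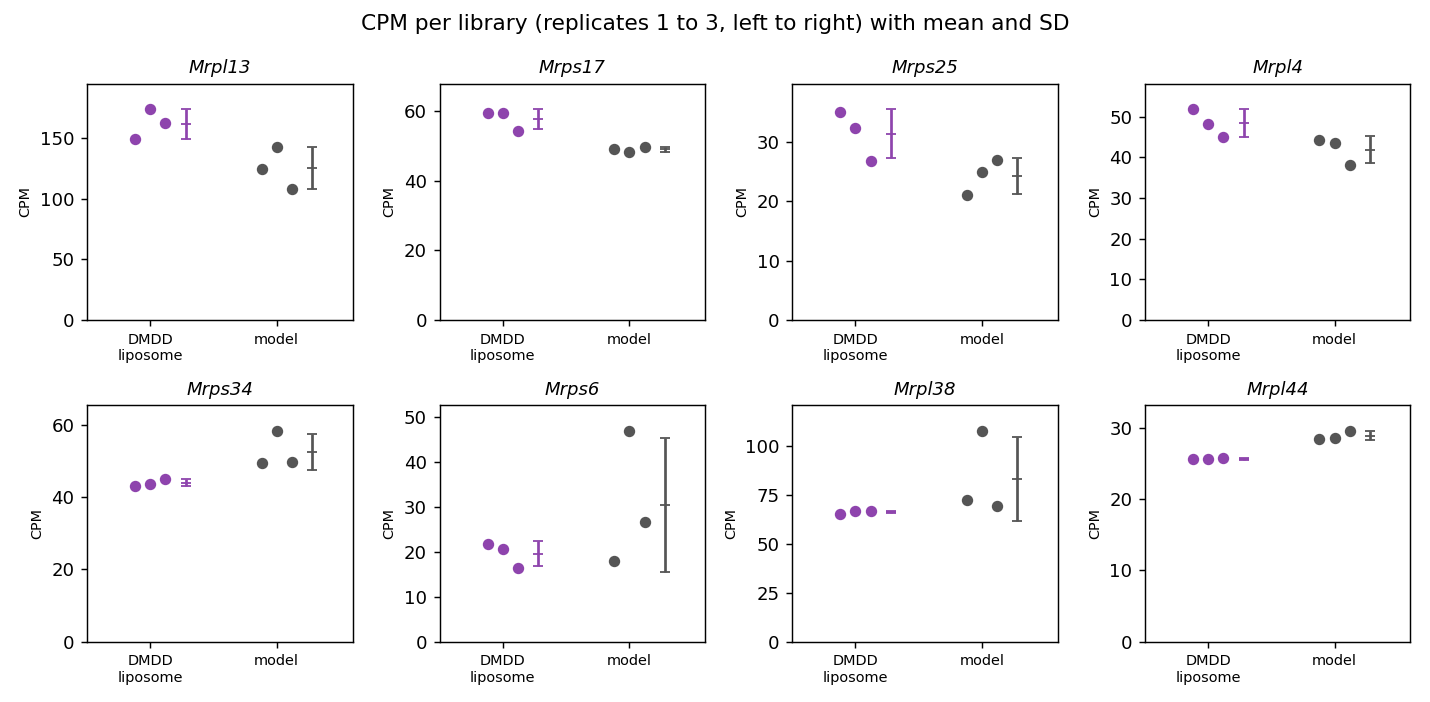
CPM of 8 members in each library, DMDD liposome (purple) left of model (grey), replicates 1 to 3 from left to right, with the mean and SD of each group beside the points; vertical axes start at 0. In Mrps6 and Mrpl38 model replicate 2 stands above the other libraries, at 47.0 and 108.0 CPM, and in Mrpl44 the points of each group lie close together.

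Among the negative members, Mrps34, a mitochondria-specific protein of the small subunit, measured 43.1, 43.7 and 45.0 CPM in DMDD liposome, against 49.5, 58.4 and 49.6 CPM in model. All DMDD liposome values lay below all model values, and the log2 fold change was -0.26 ± 0.11 (unadjusted p = 0.0516). It stood at -0.18 without model replicate 2. Of its annotated exon bases, 63.4% are shared with Mapk8ip3 on the opposite strand and 37.0% with Nme3 on the same strand, and these genes had log2 fold changes of -0.16 ± 0.17 and 0.29 ± 0.17.

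Mrps6, counterpart of S6, had the most negative value in the family and also the largest spread. It measured 21.7, 20.6 and 16.5 CPM in DMDD liposome, against 17.9, 47.0 and 26.7 CPM in model. Model replicate 1 lay inside the DMDD liposome range and model replicate 2 stood far above all other libraries. The log2 fold change of -0.64 ± 0.33 (0.642-fold, unadjusted p = 0.0901) went to -0.19 without model replicate 2 and to -0.91 without model replicate 1. Of the annotated exon bases of Mrps6, 10.4% are shared with Slc5a3, the myo-inositol transporter gene, on the same strand. Slc5a3 measured 81.3, 71.0 and 77.1 CPM in DMDD liposome, against 62.7, 154.2 and 119.2 CPM in model. Its highest value was in model replicate 2, as for Mrps6. Its lowest was in model replicate 1, whereas Mrps6 was lowest in DMDD liposome replicate 3.

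Mrpl38, which sits in the central protuberance of the large subunit, measured 65.6, 66.8 and 66.6 CPM in DMDD liposome, against 72.5, 108.0 and 69.5 CPM in model. Its log2 fold change of -0.33 ± 0.17 (unadjusted p = 0.0970) was -0.11 without model replicate 2. Mrpl44, a large subunit protein with a ribonuclease III fold, had the smallest spread within groups of all members, an SD of 0.02 on the log2 scale. It measured 25.6, 25.5 and 25.8 CPM in DMDD liposome, against 28.4, 28.6 and 29.5 CPM in model, a log2 fold change of -0.17 ± 0.11 (unadjusted p = 0.148). The difference in means was larger than the spread of either group, but the fit estimates the error of each gene partly from the other genes, and its interval from -0.42 to 0.08 includes 0.

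Mrpl30, Mrpl14, Mrpl18 and Mrpl17, all counterparts of bacterial large subunit proteins, had log2 fold changes of -0.23, -0.20, -0.23 and -0.19 with overlapping groups. Each was highest in model replicate 2, and without that library their values were -0.15, -0.05, -0.12 and -0.10.

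The paralogs Mrps18a, Mrps18b and Mrps18c all derive from bacterial S18, and Mrps18c is the form at the S18 position of the small subunit. Mrps18a had 33.9 ± 3.09 CPM in DMDD liposome and 33.1 ± 7.23 CPM in model. Mrps18b had 21.2 ± 1.34 CPM and 23.1 ± 1.62 CPM, and Mrps18c 27.6 ± 0.812 CPM and 29.9 ± 3.35 CPM, in the same order, and for each the log2 fold change (0.04, -0.12 and -0.12) was smaller than its SE. Mrps36 measured 3.21 ± 0.225 CPM in DMDD liposome and 3.86 ± 0.377 CPM in model, a log2 fold change of -0.27 ± 0.26. Mrpl12, a protein of the stalk that recruits translation factors, measured 92.9 ± 17.6 CPM in DMDD liposome and 92.2 ± 15.5 CPM in model.

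Although the groups did not separate, the family differed between libraries, and its members moved together. Relative to each gene's mean log2 CPM over the 6 libraries, 65 of 75 members were above their own mean in model replicate 2, with a median of 0.17, and 13 of 75 in model replicate 1, with a median of -0.12. In DMDD liposome replicates 1 to 3 the counts were 35, 52 and 19, with medians of -0.01, 0.08 and -0.07, and in model replicate 3 the count was 24, with a median of -0.06. Over all genes tested, 49.5% to 51.6% of genes were above their own mean in each library. Scaling by TMM keeps that share nearly even, so it does not show whether other sets of genes moved. In model replicate 2, 91.9% of nuclear oxidative phosphorylation genes tested were above their own mean, beside 86.7% of members. Of the 572 genes tested shorter than 1000 bases, 75.9% were above their own mean there. Over all genes tested, model replicate 2 was the highest library for 19.6% and the lowest for 21.0%. Model replicate 1 was the lowest for 16.7% of them and the highest for 14.5%. Among members, model replicate 2 was the highest library for 37 (49.3%) and the lowest for 1 (1.3%). Model replicate 1 was the lowest for 27 members (36.0%) and the highest for 2 (2.7%). The large and small subunits shared this order at both ends, with medians of 0.17 and 0.16 in model replicate 2 and of -0.12 each in model replicate 1.

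**Figure D4:**
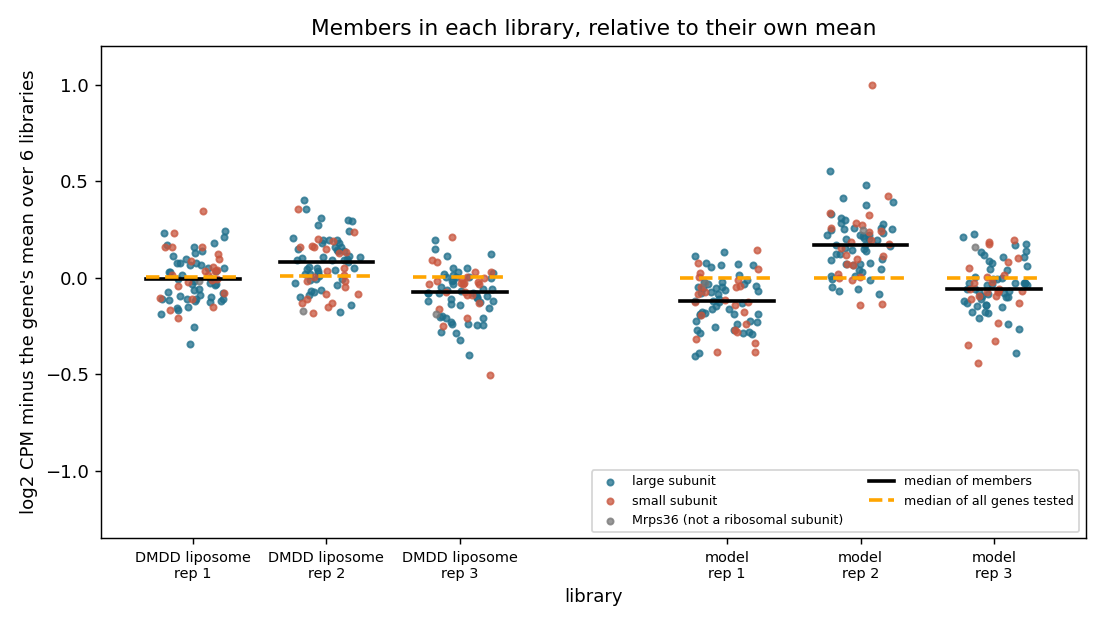
Log2 CPM of each member minus its mean over the 6 libraries (points, colored by subunit), DMDD liposome left of model; black bars mark the median of members and dashed bars that of all genes tested. Members lie mostly above 0 in model replicate 2 (median 0.17) and below 0 in model replicate 1 (median -0.12); the single high point in model replicate 2 is Mrps6.

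Gene length, keratinocyte RNA, fibroblast markers and proliferation markers moved with parts of this pattern. The 10 fibroblast markers had medians above 0 in the same libraries as the members, at 0.79 in DMDD liposome replicate 2 and 0.42 in model replicate 2, and medians from -0.49 to -0.22 in the other libraries. The 21 members shorter than 1000 bases were all above their own mean in model replicate 2, with a median of 0.26, and the 572 genes tested of that length had a median of 0.19 there. The 26 members of 2000 bases or more had a median of 0.09 in model replicate 2 and -0.13 in model replicate 1, where the 9902 genes tested of that length had -0.03 and 0.01. In model replicate 1, the lowest library for proliferation markers, their median was -0.75, while model replicates 2 and 3 stood at 0.45 and 0.55. Model replicate 3 was thus high for proliferation markers but not for the mitoribosomal genes. The part of these measures in the pattern was not tested.

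**Figure D5:**
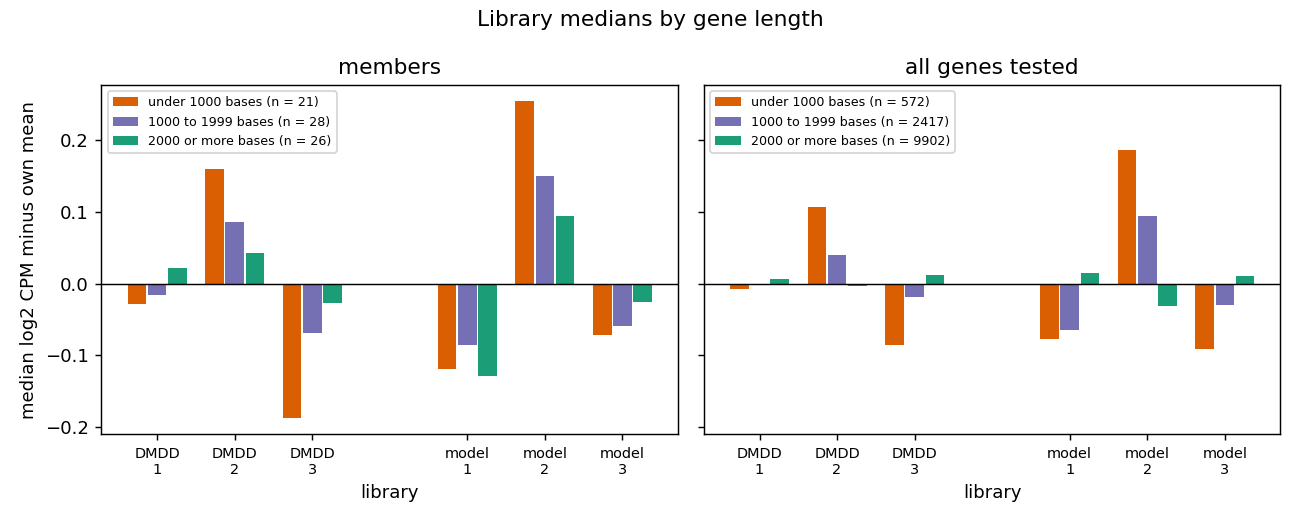
Median log2 CPM minus the gene's own mean in each library, DMDD liposome left of model, for members (left) and all genes tested (right) in 3 classes of gene length. Short genes stand highest in model replicate 2 in both panels (0.26 and 0.19), and long members (0.09) stand above long genes in general (-0.03) there.

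The spread within groups was small for most members, with a median SD of 0.15 on the log2 CPM scale beside 0.21 over all genes tested. After Mrpl44, the steadiest was Mrpl39, of the large subunit, which measured 27.1, 27.3 and 26.6 CPM in DMDD liposome, against 26.8, 26.4 and 25.3 CPM in model, an SD of 0.03. The most variable after Mrps6 (SD 0.51) was Mrps12, counterpart of the decoding-site protein S12, at 0.34, with 21.0, 23.6 and 24.5 CPM in DMDD liposome against 16.7, 28.4 and 15.5 CPM in model. The model values of Mrps12 enclosed those of DMDD liposome.

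Other genes of mitochondrial translation also had 0 adjusted calls. The background for counts at an unadjusted p under 0.05 by edgeR was 7.65% of all genes tested. Ribosomal proteins named otherwise, Dap3, Chchd1, Aurkaip1, Ptcd3 and Gadd45gip1, had log2 fold changes from -0.13 to 0.08. Of 25 assembly factors tested 0 passed the adjusted test and 0 had an unadjusted p under 0.05, with a median of 0.01. Translation factors (15 tested, median 0.07) and genes of mitochondrial DNA transcription and RNA processing (17 tested, median 0.04) likewise had 0 and 0. Of 20 mitochondrial aminoacyl-tRNA synthetase genes, which charge the tRNAs, 0 passed the adjusted test and 1 had an unadjusted p under 0.05. It was Tars2, the threonyl enzyme, at 54.0 ± 3.94 CPM in DMDD liposome and 44.8 ± 1.73 CPM in model, a log2 fold change of 0.27 ± 0.11 (adjusted p = 0.630). Among 9 regulators of mitochondrial biogenesis, the median was -0.02 with 0 and 0.

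Genes whose products work beside the mitoribosome were set beside it, with the same background of 7.65% at an unadjusted p under 0.05. The 74 nuclear oxidative phosphorylation genes tested had a median log2 fold change of 0.00 with 0 past either threshold, and their library medians were 0.00, 0.10 and -0.08 in DMDD liposome and -0.12, 0.21 and -0.11 in model, in replicate order. The 11 mRNAs encoded by mitochondrial DNA and tested, which the mitoribosome translates, had a median log2 fold change of -0.07 with 0 past either threshold. Their library medians were -0.18, 0.49 and -0.49 in DMDD liposome and -0.45, -0.11 and 0.65 in model, so their highest library was model replicate 3 and not model replicate 2. Of 81 cytosolic ribosomal protein genes tested, 0 passed the adjusted test and 1, Rps16, had an unadjusted p under 0.05 (log2 fold change -0.42 ± 0.15, adjusted p = 0.626), with a list median of -0.04. Their library medians were -0.06, 0.07 and -0.06 in DMDD liposome and -0.01, 0.15 and -0.08 in model, so they too stood above 0 in replicate 2 of either group, with 80.2% of them above their own mean in model replicate 2. Model replicate 1, where the members' median was lowest, was not the lowest for them.

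DESeq2 called 0 of the 75 members, where it called 0.341% of 16736 genes with a p, and the authors' deposited table also called 0, where it called 0.346% of 16763. The smallest adjusted p of a member in the authors' deposited table was 0.430. Without model replicate 1, edgeR called 112 of 13159 genes (0.851%) but 0 members, and 6 members had an unadjusted p under 0.05 against 16.3% of all genes. Leaving out model replicate 2 gave 2 such members (background 5.54%), and leaving out model replicate 3 gave 4 (4.79%). Without DMDD liposome replicates 1, 2 or 3 in turn, the counts were 1 (3.66%), 0 (8.68%) and 1 (6.53%). Apart from the 4 without model replicate 3, whose share of 75 is about that of all genes, these shares lay at or below the background.

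Members with and without a promoter motif were compared as a description. The 24 genes with the ETS letters had a median log2 fold change of -0.02 and the 42 without them 0.02, and in model replicate 2 their medians relative to their own mean were 0.22 and 0.15. For YY1, 8 genes with its letters had a median log2 fold change of 0.08 and 58 without them 0.00. In model replicate 2, medians with and without the letters were 0.21 and 0.16 for YY1, and 0.17 and 0.16 for NRF1. They were 0.18 and 0.14 for Sp1, and 0.05 and 0.17 for the TATA box. Only 3 genes had the NRF1 letters and 5 the TATA box letters. The part of these motifs in the values was not tested.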

How the data were processed

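Total RNA of tumors had been extracted with Trizol and made into 6 NEBNext Ultra libraries, per the labels' protocols. Groups and replicate numbers came from the sample descriptions, which call the animals rats although the organism field and strain name a mouse. The deposited table holds raw counts of reads for each gene, per the file headers. The deposited signal columns are those counts divided by a size factor per sample. The authors also deposited FPKM, log2 fold changes (model over DMDD liposome, opposite to the direction used here) and p-values. The submitters' processing notes name build mm9 and DESeq2; the aligner, counter, annotation and use of strand were not stated.

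The test on counts was edgeR 4.0.16 under R 4.3.3: filterByExpr (minimum count 10, minimum total 15; 12891 genes kept), TMM, two-sided quasi-likelihood test, Benjamini-Hochberg adjustment over all genes tested, threshold 0.05. SEs and 95% intervals came from the quasi-likelihood F statistic. Log2 CPM used a prior count of 2. At these depths 3 counts equal 0.192 to 0.230 CPM; these floors cover counting error only, whereas the intervals include the spread between libraries. Gene lengths were recovered from counts and FPKM. Promoters (RefSeq, GRCm38.p6) and exon overlaps (GENCODE vM21, GRCm38) come from another build than the counts, so no coordinate was carried between them. The fit was tested on simulated data. No libraries were duplicates: counts of every pair differed beyond sampling noise.

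Members, classes, lists and the naming rule were chosen with earlier results of these data known. The rule named any member past the adjusted threshold (none), the 8 with the smallest p per direction, the 4 highest and 4 lowest by FPKM, the Mrps18 paralogs and Mrps36, and up to 2 genes with an unadjusted p under 0.05 per pathway list. Members beyond it (Mrpl9, Mrpl12, Mrpl34, Mrpl39 and Mrps12), genes sharing exons, and the classes of gene length were chosen after values were seen. Alternatives were DESeq2 size factors, no count filter, DESeq2 1.42.0, limma-voom (limma 3.58.1) with sample weights, a replicate block, a threshold of 0.01 and leaving out each library.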

Additional observations from a re-analysis of the deposited data

How the results depend on the processing

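The count of members called was 0 under every alternative run, with 0 to 6 members at an unadjusted p under 0.05. By edgeR, 4 members and 980 genes in all had such a p with DESeq2 size factors. There were 2 and 1248 with no count filter, and 1 and 1111 with the replicate block. DESeq2 gave 1 member and 1175 genes, and limma-voom gave 3 and 1529. Which members passed that threshold, and in which direction, depended on the setting. Mrps34, lower in DMDD liposome, had an unadjusted p of 0.0474 by edgeR with DESeq2 size factors, 0.0487 by edgeR with no count filter and 0.0421 by limma-voom. By edgeR with no count filter, Mrps17 and Mrps25 had 0.0732 and 0.0527. They had 0.07448 and 0.05895 by DESeq2, and 0.08123 and 0.08696 by edgeR with the replicate block. By edgeR with DESeq2 size factors they had 0.04827 and 0.04722, and by limma-voom 0.04752 and 0.06985. Over all genes, calls went from 0 to 57 with DESeq2 and ranged from 0 to 112 with each library left out, the 112 without model replicate 1; the cause was not tested. The members' median log2 fold change ranged from -0.08 to 0.06 with each library left out, that of the large subunit from -0.09 to 0.06 and of the small subunit from -0.07 to 0.10, and the ratio of summed CPM from 0.953 to 1.06. Members near 0 changed sign: Mrpl52 stood at -0.0576 under limma-voom and between -0.15 and 0.14 with each library left out, Mrpl48 between -0.0803 and 0.20, Mrps18a between -0.0876 and 0.22, Mrps21 between -0.19 and 0.13, and Mrpl23 between -0.13 and 0.13. The other 21 named members kept their sign under every alternative.

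With the replicate number as a block, 0 members and 0 genes were called, and the members' median was 0.00. Same-numbered libraries deviated from their group means with correlations of 0.088, 0.114 and 0.121 across genes, and every library correlated best with its own number. Deviations from a mean of 3 libraries sum to 0 for each gene, so some pairs must correlate positively. The labels give no shared source, and whether same-numbered libraries share one was not tested. With 3 libraries per group, the 95% interval of a member reached a median of 0.33 on the log2 scale to either side, without adjustment over genes.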

Other observations

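The mitochondrial aminoacyl-tRNA synthetase list was dominated by 1 gene. Lars2, the leucyl enzyme, measured 568, 1102 and 251 CPM in DMDD liposome replicates 1 to 3, against 1181, 594 and 497 CPM in model replicates 1 to 3, and the 20 genes of the list summed to 1012, 1554 and 678 CPM against 1618, 1042 and 930 CPM. The groups overlapped, with a log2 fold change of -0.24 ± 0.53 for Lars2. Its order of libraries was unlike that of the mitoribosomal genes. Model replicate 1 was the highest library for Lars2 and the lowest for 27 of the 75 members (36.0%, against 16.7% of all genes tested).

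Of the 75 members, 32 share exon bases with another gene in the GENCODE annotation of GRCm38, 27 with a gene on the opposite strand and 7 with one on the same strand. Mrps11 and Mrpl46, divergent neighbours that are both members, share exon bases on opposite strands and had log2 fold changes of 0.13 and -0.06.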
